A study of Mus musculus with 2 samples.

Results

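The Bcl2 family decides whether a cell keeps or opens its mitochondrial outer membrane, and 10 of its genes were followed from melanocyte stem cells (McSCs) at early anagen to mature melanocytes of the hair bulb. The genes were taken by name from a list of 10 among the 32285 genes of the matrices. They comprised the survival genes *Bcl2*, *Bcl2l1*, *Mcl1* and *Bcl2a1b*, the pore-forming effector genes *Bax* and *Bak1*, and the BH3-only genes *Bcl2l11*, *Bbc3*, *Pmaip1* and *Bid*. Each gene was read in melanocytes selected by at least 1 unique molecular identifier (UMI, a tag that marks 1 captured transcript) of *Dct*, fewer than 3 UMIs of *Krt10* and *Krt14* together, and less than 5% mitochondrial UMIs.

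In this family, survival proteins such as BCL-2, BCL-xL and MCL-1 hold effector proteins and BH3-only proteins in check. BH3-only proteins relay stress and loss of growth factors, and the effectors BAX and BAK permeabilize the mitochondrial membrane, after which cytochrome c leaves and caspases are activated. *Bcl2* has a known place in this lineage, because mice that lack it lose their McSCs and turn grey after birth.

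Both libraries came from *Dct*-rtTA; tetO-H2B-GFP mice, in which the *Dct* promoter drives a doxycycline-dependent nuclear GFP label in melanocytes, and GFP+ cells were sorted. The early-anagen library held McSCs of anagen II back-skin follicles, 4 days after depilation of mice aged 8 weeks, which were dissociated with trypsin. The bulb library held differentiated melanocytes of microdissected bulbs of anagen VI follicles, from mice aged 5 weeks that were not described as depilated, dissociated with EDTA, collagenase II and dispase. Each library pooled the cells of 4 mice fed doxycycline. Chemistry (version 3 for early anagen, version 2 for the bulb), depth, dissociation, age and depilation differ with the cell state and cannot be told apart from it.

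The selection kept 2785 of 11010 early-anagen barcodes (more than 10000 UMIs each, median 24528) and 3734 of 4327 bulb barcodes (more than 5000 UMIs each, median 14286.5). The selected cells held 75718468 and 55883067 UMIs. Among all barcodes, before the selection, 1 occurred in both libraries. All 7 melanocyte markers other than *Dct*, which the selection required, were found in most cells of each library, and their summed level was 16839 CPM (UMIs of a gene scaled to the total of the group) at early anagen and 51552 CPM in the bulb. The 8 epidermal markers other than *Krt10* and *Krt14*, which the selection capped, summed to 20.97 and 50.03 CPM, the 8 immune markers to 57.1 and 6.71 CPM, the 6 fibroblast markers to 1.32 and 0.82 CPM, and the 3 endothelial markers to 0.11 and 0.018 CPM. The most widely found immune marker had a UMI in 41.8% of early-anagen and 5.38% of bulb cells. *Cdh5* and *Cldn5* were at 0 in both libraries, as was the mast-cell gene *Cpa3*. *Krt1*, *Krt15*, *Krt6a*, *Ptprc*, *Col1a1*, *Col3a1*, *Lum* and *Pdgfra* were at 0 in the bulb cells.

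Promoter sequences are shown first for both survival genes that were lower in the bulb, *Bcl2* and *Mcl1*, and for both effectors, which were higher there. They are RefSeq sequences of GRCm38.p6, printed 5′ to 3′ on the strand of the gene, from 250 bases before the annotated start to 30 bases after it. RefSeq promoters of 9 of the 10 genes were searched, in 14 windows of 300 bases, and *Pmaip1* was left out of the search. Capitals mark CACGTG, a form of the E-box that the melanocyte factor MITF can bind, searched on both strands.
Bcl2 promoter, chr1:106714261-106714540, minus strand: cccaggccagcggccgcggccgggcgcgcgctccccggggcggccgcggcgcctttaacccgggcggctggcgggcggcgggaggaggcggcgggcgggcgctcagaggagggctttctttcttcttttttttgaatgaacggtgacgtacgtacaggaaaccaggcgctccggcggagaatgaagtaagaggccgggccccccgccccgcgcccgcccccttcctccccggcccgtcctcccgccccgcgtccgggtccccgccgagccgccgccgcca
Mcl1 promoter, chr3:95658471-95658750, plus strand: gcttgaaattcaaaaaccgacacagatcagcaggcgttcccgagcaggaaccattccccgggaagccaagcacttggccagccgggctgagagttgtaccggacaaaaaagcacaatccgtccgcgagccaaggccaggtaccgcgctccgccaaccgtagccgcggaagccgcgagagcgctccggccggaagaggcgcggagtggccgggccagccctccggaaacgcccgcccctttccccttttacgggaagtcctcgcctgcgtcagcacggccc
Bax promoter, chr7:45466869-45467148, minus strand: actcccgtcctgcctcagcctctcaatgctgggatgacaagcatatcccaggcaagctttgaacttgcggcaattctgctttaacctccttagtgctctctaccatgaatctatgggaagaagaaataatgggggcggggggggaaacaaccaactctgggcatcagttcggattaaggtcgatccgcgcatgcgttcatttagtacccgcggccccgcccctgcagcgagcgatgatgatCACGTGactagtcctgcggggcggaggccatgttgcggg
Bak1 promoter, chr17:27028598-27028877, minus strand: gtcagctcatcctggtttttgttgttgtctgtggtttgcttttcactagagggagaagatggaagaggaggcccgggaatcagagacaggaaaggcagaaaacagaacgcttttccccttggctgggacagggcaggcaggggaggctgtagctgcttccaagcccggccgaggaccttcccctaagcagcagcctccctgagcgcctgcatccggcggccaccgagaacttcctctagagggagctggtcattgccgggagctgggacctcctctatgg
CACGTG was found in the windows of 2 of the 9 genes. The *Bax* window of 300 bases held 2 matches, of which the one within the printed bases is in capitals, and 1 of the 3 *Bbc3* windows held 1 match. Among 32851 RefSeq promoters of the same length, 7.15% held CACGTG. The related CATGTG, found in 14.2% of all promoters, occurred in 1 window of *Bcl2l1* only. GGGCGG, the core of a GC box, was present in 35.7% of all promoters and had 7 matches in the *Bcl2* window, 3 in that of *Bax*, 1 in that of *Mcl1* and none in that of *Bak1*. A match describes letters only, and binding was not measured.

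The genes lie at chr1:106538178-106714274 (*Bcl2*), chr2:152780668-152831728 (*Bcl2l1*), chr3:95658788-95663176 (*Mcl1*), chr9:89199209-89207827 (*Bcl2a1b*), chr7:45461697-45466898 (*Bax*), chr17:27019810-27029009 (*Bak1*), chr2:128126038-128162547 (*Bcl2l11*), chr7:16308393-16318205 (*Bbc3*) and chr6:120891930-120916853 (*Bid*) in the GENCODE M21 annotation of GRCm38. An annotated gene on the opposite strand overlaps *Bcl2* (D630008O14Rik), *Bak1* (*Ggnbp1*) and *Bid* (*Bcl2l13*), and no gene overlaps a listed gene on its own strand. The library kit reads the 3′ end of a transcript once, so levels are counts of molecules that do not grow with gene length. CPM values of different genes are set side by side below. How evenly the kits capture and count transcripts of different genes was not measured, so orders and sums over genes describe captured UMIs.

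The order of the family genes by level differed between the libraries. At early anagen, *Mcl1* was the highest of the 10 genes at 323 CPM, followed by *Bax* at 241 CPM, *Bcl2* at 160 CPM and *Bak1* at 45.9 CPM. In the bulb, *Bax* led at 366 CPM, followed by *Bak1* at 91.2 CPM, *Mcl1* at 44.9 CPM, *Bcl2l1* at 29.0 CPM and *Bcl2* at 27.7 CPM. Each of these genes exceeded the next beyond the 95% counting interval, except *Bcl2l1* over *Bcl2* in the bulb, whose ratio was 1.05 with an interval of 0.976 to 1.12. In the bulb *Bcl2* was in turn close to *Bcl2l11* (ratio 1.03, 0.963 to 1.11), and at early anagen *Bbc3* was close to *Bcl2l1* (ratio 1.08, 0.985 to 1.17). The plot of levels shows the 10 genes in both libraries.

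**Figure D1:**
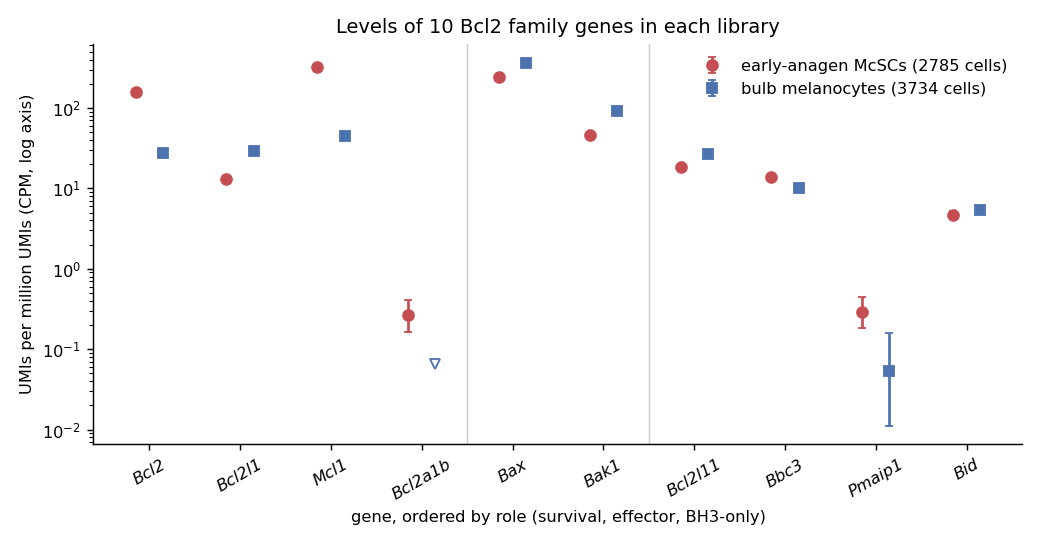
Level of each gene in CPM on a log axis, for early-anagen McSCs (red circles, 2785 cells) and bulb melanocytes (blue squares, 3734 cells), with exact 95% Poisson intervals; most are narrower than the symbol, and the open triangle is the upper limit for *Bcl2a1b*, which had no UMI in the bulb. *Mcl1* and *Bcl2* sit higher at early anagen (323 and 160 CPM) than in the bulb (44.9 and 27.7 CPM), while *Bax*, *Bak1* and *Bcl2l1* sit higher in the bulb.

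With 1 library per cell state there is no replicate, and no test was run. A gene was counted as higher or lower when its CPM differed at least 1.5-fold with an exact 95% interval off equality, among genes with a mean of at least 5 CPM. Such intervals cover counting error only, not the spread between mice. By this rule, 3 members were higher in the bulb (*Bcl2l1*, *Bax* and *Bak1*) and 2 were lower (*Bcl2* and *Mcl1*), of 8 members that passed the minimum level. Over all 8833 genes that passed it, 25.6% were higher and 38.3% were lower, so calls of this size were common between the libraries. With the interval alone and no fold, 4 members were higher and 3 lower, beside 41.3% and 52.7% of all genes. The members' median log2 ratio, bulb against early anagen, was 0.22 over the 9 members with UMIs in both libraries and −0.13 over all 10 with *Bcl2a1b* at its bound, while all genes had a median of −0.19.

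Among survival genes, *Mcl1* differed most. *Mcl1*, which encodes a short-lived survival protein, was at 323 CPM at early anagen and 44.9 CPM in the bulb, 7.19-fold lower (log2 ratio −2.85, −2.91 to −2.79). At early anagen it was found in 99.1% of cells, with up to 42 UMIs in 1 cell. In the bulb it was found in 46.9% of cells, with at most 6 UMIs in 1 cell.

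*Bcl2*, the founding survival gene of the family, was at 160 CPM at early anagen and 27.7 CPM in the bulb, 5.77-fold lower (log2 ratio −2.53, −2.61 to −2.45). Detection was 93.8% in early-anagen cells and 32.3% in bulb cells, with at most 29 and 5 UMIs in 1 cell. After thinning each cell at random to 10000 UMIs, 25.3% of early-anagen cells held 3 or more *Bcl2* UMIs against 0.456% of bulb cells, and 60.0% against 1.19% held 3 or more *Mcl1* UMIs.

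*Bcl2l1*, which encodes the survival protein BCL-xL, went the other way. It was at 12.9 CPM at early anagen and 29.0 CPM in the bulb, 2.25-fold higher (log2 ratio 1.17, 1.05 to 1.28). Its detection at full depth differed less, at 26.7% in early-anagen cells and 33.2% in bulb cells, whose median depths were 24528 and 14286.5 UMIs. At 10000 UMIs per cell it was found in 11.8% (10.6 to 13.0) and 24.6% (23.1 to 26.1) of cells.

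*Bcl2a1b* encodes an A1 survival protein known mainly from blood cells, and its near-identical copies *Bcl2a1a*, *Bcl2a1c* and *Bcl2a1d* make its counts uncertain. It had 20 UMIs in 4 early-anagen cells and was seen in 0 of 3734 bulb cells. The floor of 3 counts stands for 0.0803% of bulb cells with a UMI, and sets no limit on cells that express it below detection. A single early-anagen cell held 17 of the 20 UMIs, and this cell also held 361 UMIs of the immune markers. The other 3 UMIs were at the floor of 3 counts, and no fold is given. The 3 copies had no UMI in either library.

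The effector genes were both higher in the bulb. *Bax* was at 241 CPM at early anagen and 366 CPM in the bulb, 1.52-fold higher (log2 ratio 0.60, 0.57 to 0.63), a value just past the 1.5-fold limit. *Bak1* was at 45.9 CPM and 91.2 CPM, 1.99-fold higher (log2 ratio 0.99, 0.93 to 1.05). At 10000 UMIs per cell, *Bax* was found in 88.9% of early-anagen and 96.2% of bulb cells, and *Bak1* in 33.0% and 59.0%. Transcripts of both effectors together were seen in 29.3% (27.6 to 31.1) of early-anagen cells and 56.8% (55.0 to 58.5) of bulb cells at this depth.

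None of the 3 BH3-only genes that passed the minimum level was past the 1.5-fold limit, beside 25.6% higher and 38.3% lower of all genes. *Bcl2l11*, which encodes BIM, a sensor of growth-factor loss, was at 18.4 CPM at early anagen and 26.8 CPM in the bulb, 1.45-fold higher and just short of the limit (log2 ratio 0.54, 0.43 to 0.65). *Bbc3*, which encodes the p53 target PUMA, was at 13.9 and 10.0 CPM (log2 ratio −0.47, −0.62 to −0.32). *Bid*, which links death receptors to mitochondria, was at 4.70 and 5.46 CPM (log2 ratio 0.22, −0.010 to 0.44), an interval that includes equality.

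*Pmaip1*, which encodes the p53 target NOXA, was near its floor in melanocytes. It had 22 UMIs in 17 early-anagen cells and 3 UMIs in 3 bulb cells (log2 ratio −2.44, −4.82 to −0.70). In 80 early-anagen barcodes that had been set aside, with at least 20 UMIs of *Krt10* and *Krt14* and more of these than of *Dct*, it was at 39.6 CPM and was found in 42.5% (31.5 to 54.1) of cells at a median of 34055 UMIs, against 0.610% of McSCs. The share in melanocytes was thus below that of the keratin-bearing barcodes in the same library. Whether these few UMIs came from the melanocytes or from free RNA was not tested. A BH3-only UMI of any of the 4 genes was seen in 30.8% (29.1 to 32.6) of early-anagen and 33.5% (31.9 to 35.1) of bulb cells at 10000 UMIs.

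The same keratin-bearing barcodes were set beside the McSCs for other members. Their epidermal markers summed to 34209 CPM, a sum that includes the *Krt10* and *Krt14* by which they were chosen. These barcodes can express the family genes themselves, so they give no level of free RNA, which was not measured. *Bcl2* was at 23.5 CPM in them and was found in 32.5% (22.4 to 43.9), below the 93.8% of McSCs although their median depth was greater. *Bax* was at 87.8 CPM and *Bak1* at 18.0 CPM there, below both melanocyte groups. *Mcl1* was at 218 CPM and was found in 98.8% of them, so its detection in McSCs is not particular to melanocytes. The bulb library held too few such barcodes for a comparison of its own, so the bulb *Bcl2* share of 32.3% was not set against any.

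**Figure D2:**
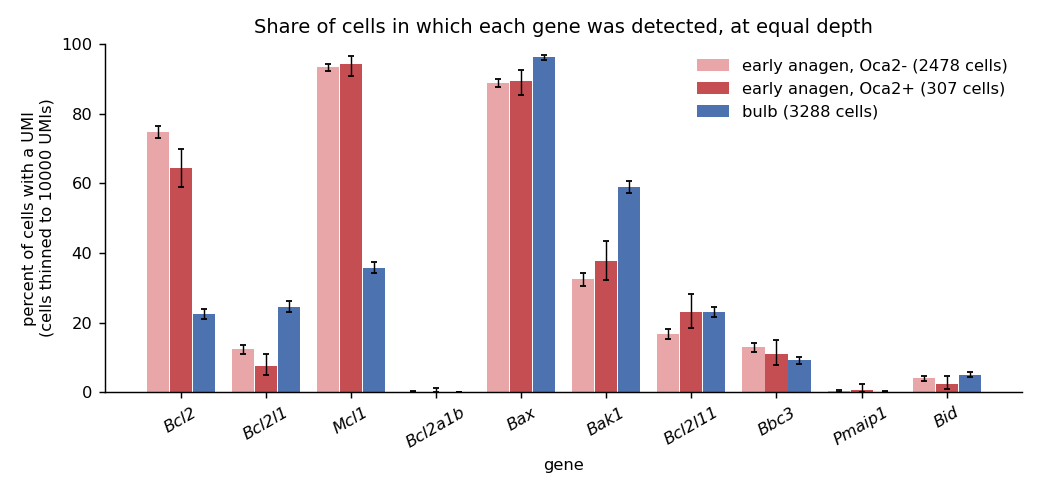
Percent of cells with at least 1 UMI of each gene after thinning to 10000 UMIs, for early-anagen *Oca2*- cells (light red, 2478), early-anagen *Oca2*+ cells (dark red, 307) and bulb melanocytes (blue, 3288), with exact 95% Clopper-Pearson intervals. *Bcl2* stands at 74.9%, 64.5% and 22.5% of cells, and *Bak1* stands at 32.4%, 37.8% and 59.0%.

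Summed by role, transcripts of the 4 survival genes outnumbered those of the 6 death genes at early anagen and were outnumbered in the bulb. The sums were 496 and 324 CPM at early anagen, a ratio of 1.53 (1.51 to 1.56). In the bulb they were 102 and 499.6 CPM, a ratio of 0.204 (0.198 to 0.209). *Bax* supplied 74.3% and 73.3% of the death sum in the 2 libraries. *Mcl1* supplied 65.1% of the survival sum at early anagen and 44.2% in the bulb.

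The value of the ratio depends on which genes are summed, and its order between the libraries did not change with the sums tried. Without *Mcl1* it was 0.534 at early anagen and 0.114 in the bulb, both below 1, so the ratio above 1 at early anagen needed *Mcl1* in the sum. Without *Bax* it was 5.96 and 0.761. Over 9 survival and 11 death genes, which add *Bcl2l2*, *Bcl2l10* and the *Bcl2a1* copies to one sum and *Bok*, *Bad*, *Bik*, *Hrk* and *Bmf* to the other, it was 1.20 and 0.158. With the BH3-like genes *Bnip3* and *Bnip3l* among the death genes too, a sum chosen after seeing the data, it was 0.811 and 0.110, so an early-anagen ratio above 1 was not kept under every sum.

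The order between the libraries also held cell by cell, with all members in the sums. Other sums, such as one without *Mcl1*, were not tried cell by cell. At 10000 UMIs per cell, 63.2% (61.4 to 65.0) of 2785 early-anagen cells held more survival than death UMIs, and 26.5% (24.9 to 28.2) held fewer. In the bulb, 2.80% (2.26 to 3.42) of 3288 cells held more and 92.1% (91.1 to 93.0) held fewer. No survival UMI was seen in 2.23% of cells at early anagen and 37.6% in the bulb. *Bax* without any UMI of *Bcl2* or *Mcl1* was seen in 2.33% (1.81 to 2.97) and 48.3% (46.5 to 49.99) of cells. Survival UMIs averaged 5.26 ± 3.23 per early-anagen cell (SD over 2785 cells) and 1.005 ± 1.04 per bulb cell (SD over 3288 cells), while death UMIs averaged 3.20 ± 1.90 and 4.996 ± 2.50.

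**Figure D3:**
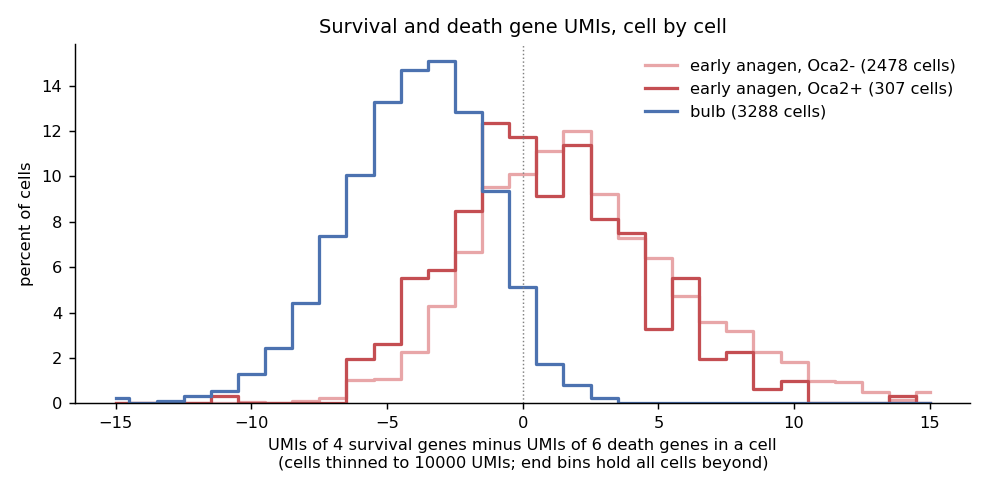
Distribution over cells of survival-gene UMIs minus death-gene UMIs, in percent of cells, after thinning to 10000 UMIs, for early-anagen *Oca2*- cells (light red), early-anagen *Oca2*+ cells (dark red) and bulb melanocytes (blue); the end bins hold all cells beyond them. The median difference is 2 UMIs in *Oca2*- cells, 1 in *Oca2*+ cells and −4 in the bulb.

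*Oca2*, a late pigmentation gene that the study used to mark the most differentiated McSCs of early anagen, split the early-anagen library. At full depth 16.3% of cells at early anagen and 96.2% in the bulb held an *Oca2* UMI. After thinning to 10000 UMIs, 307 early-anagen cells held at least 1 *Oca2* UMI (*Oca2*+) and 2478 held none (*Oca2*-). Of 13 pigmentation genes other than *Oca2*, 12 were higher in *Oca2*+ cells, beside 6.12% of all genes, and 12 in the bulb, beside 25.6%. The 2 groups share 1 library, so chemistry, dissociation and age do not separate them, and they are cells of the same 4 mice rather than replicates.

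Within early anagen, *Mcl1* and *Bcl2* had log2 ratios nearer to 0 than between the libraries, while that of *Bcl2l11* was of like size (0.57 and 0.54). By the 1.5-fold rule no member was higher in *Oca2*+ cells and 1 was lower (*Bcl2l1*), of 7 that passed the level, beside 6.12% and 6.05% of 9039 genes. With the interval alone, 3 members were higher (*Bax*, *Bak1* and *Bcl2l11*) and 3 lower (*Bcl2*, *Bcl2l1* and *Mcl1*), beside 18.1% and 15.6% of all genes. The median log2 ratio of the 9 members with UMIs in both groups was −0.11, against 0.03 for all genes.

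*Bcl2* stood at 126 CPM in *Oca2*+ cells, against 178 CPM where *Oca2* was not seen (log2 ratio −0.49, −0.65 to −0.34). Cells with 1 *Oca2* UMI were at 140 CPM and those with 2 or more at 114 CPM, and these 2 groups did not differ beyond the interval (log2 ratio −0.29, −0.59 to 0.002). *Mcl1* stood at 318 and 343 CPM (log2 ratio −0.11, −0.21 to −0.01), and with all UMIs of each cell its log2 ratio was 0.030 (−0.016 to 0.077). *Bcl2* thus lay lower in the *Oca2*+ cells, while *Mcl1* lay close to the same level in both.

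*Bcl2l1* stood at 7.82 CPM in *Oca2*+ cells, from 24 UMIs, against 13.7 CPM in the others (log2 ratio −0.81, −1.47 to −0.21). This direction is opposite to that of the bulb and was not kept: it turned to 0.34 (−0.50 to 1.08) with cells thinned to 5000 UMIs and to 0.16 (−0.49 to 0.75) in cells without a *Krt10* or *Krt14* UMI. *Bax* was at 264 and 234 CPM (log2 ratio 0.17, 0.07 to 0.28), and *Bak1* at 53.7 and 42.2 CPM (log2 ratio 0.35, 0.10 to 0.59). *Bcl2l11* was at 28.7 and 19.4 CPM (log2 ratio 0.57, 0.22 to 0.90). *Bbc3*, *Bid* and *Pmaip1* had intervals that included equality, with 39, 7 and 2 UMIs in *Oca2*+ cells.

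**Figure D4:**
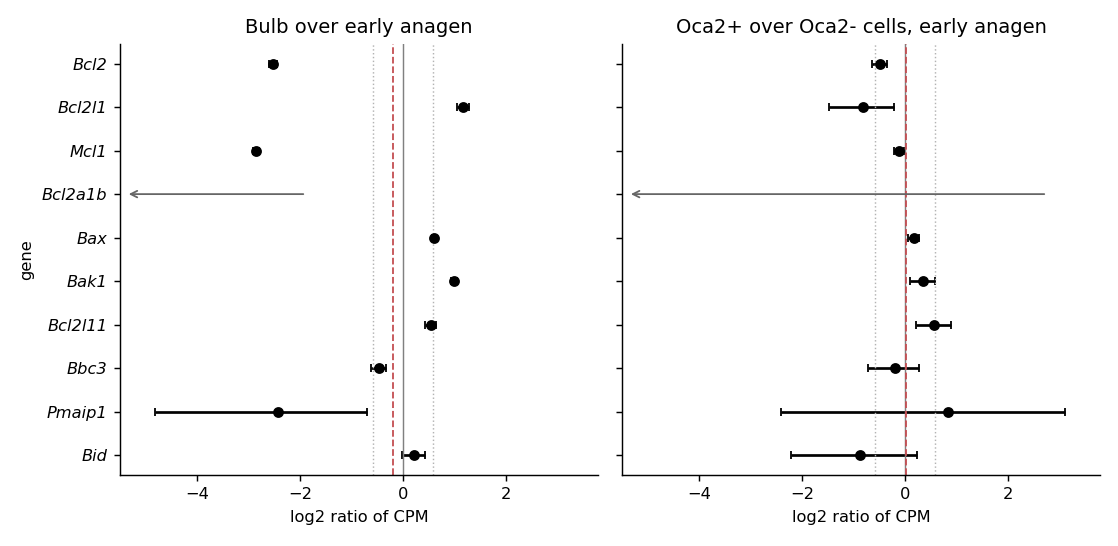
log2 ratio of CPM with its exact 95% interval for each gene, bulb over early anagen (left) and *Oca2*+ over *Oca2*- early-anagen cells (right); dotted lines mark 1.5-fold, the red dashed line the median of all genes, and arrows an interval with no lower end (0 UMIs of *Bcl2a1b*). *Mcl1* lies at −2.85 on the left and −0.11 on the right, and *Bcl2* at −2.53 and −0.49.

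Against bulb cells of the same *Oca2* class, *Mcl1*, *Bcl2*, *Bcl2l1*, *Bax* and *Bak1* kept the direction seen in the whole libraries. In *Oca2*+ cells of both, thinned to 10000 UMIs, the bulb stood to early anagen at a log2 ratio of −2.83 (−2.95 to −2.71) for *Mcl1*, −2.27 (−2.44 to −2.09) for *Bcl2*, 1.91 (1.33 to 2.56) for *Bcl2l1* and 0.80 (0.57 to 1.03) for *Bak1*. The *Bcl2l1* value rested on 24 UMIs in the early-anagen cells, and no other depth was tried in this comparison. *Bax* was at 363 CPM in the bulb and 264 CPM at early anagen (log2 ratio 0.46, 0.36 to 0.56). *Bcl2l11* was level in the 2 (27.5 and 28.7 CPM, log2 ratio −0.06, −0.38 to 0.27). Within the bulb, 161 cells without an *Oca2* UMI were set against 3127 with one, and the intervals of all 8 members with UMIs in both groups included equality. The share of all genes with such intervals was not computed. Epidermal markers, here with *Krt10* and *Krt14*, summed to 902 CPM in the 161 cells and 23.8 CPM in the others. Melanocyte markers summed to 45058 and 68678 CPM. The 161 cells thus also carried epidermal transcripts, whose part in the member levels was not tested.

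The ratio of survival to death transcripts was 1.25 (1.15 to 1.35) in *Oca2*+ and 1.70 (1.65 to 1.75) in *Oca2*- early-anagen cells, and 0.201 (0.193 to 0.209) in *Oca2*+ bulb cells. More survival than death UMIs were held by 51.1% (45.4 to 56.9) of *Oca2*+ and 64.7% (62.8 to 66.6) of *Oca2*- cells. The ratio in *Oca2*+ McSCs thus lay below that in *Oca2*- McSCs and above that in the bulb. Immune markers summed to 125 CPM where *Oca2* was seen and 51.7 CPM where it was not, with *Ptprc*, *Cd52*, *Tyrobp*, *Fcer1g* and *Cpa3*, 5 of the 8, at 0 in *Oca2*+ cells. Fibroblast markers summed to 4.23 and 1.09 CPM, with *Col3a1*, *Dcn* and *Pdgfra* at 0 in *Oca2*+ cells. Epidermal markers, here with *Krt10* and *Krt14*, summed to 41.4 and 44.6 CPM, beside 37.0 CPM over all early-anagen cells at full depth. The part of these sums in the differences between the groups was not tested.

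Cell cycle, depth and stress genes moved with some of these values. Cells with a *Mki67* or *Top2a* UMI (987 of 2785 at 10000 UMIs) had less *Bcl2* (138 against 191 CPM, log2 ratio −0.47, −0.56 to −0.37) and less *Mcl1* (290.5 against 368 CPM, log2 ratio −0.34, −0.40 to −0.28) than cells without. They also had less *Bcl2l11* (log2 ratio −0.54, −0.81 to −0.27) and *Bbc3* (log2 ratio −0.54, −0.87 to −0.22). *Bak1* went the other way (log2 ratio 0.23, 0.06 to 0.40). No member was past the 1.5-fold limit in this comparison, and the share of all genes past it was not computed. Bulb over early anagen was also read in cells without a *Mki67* or *Top2a* UMI at full depth, 1523 at early anagen and 3643 in the bulb. These cells were not thinned, so depth was not held equal. There *Bcl2* was at −2.72 and *Mcl1* at −3.00, and *Bbc3* passed the fold limit at −0.62.

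Early-anagen *Bcl2* was lower in deeper cells, at 228, 164 and 134 CPM in cells of 10000 to 20000, 20000 to 30000 and over 30000 UMIs, and *Mcl1* at 382, 344 and 291 CPM. The ratio of survival to death transcripts over these ranges was 2.05, 1.56 and 1.35. In the bulb it stayed between 0.196 and 0.237 over 4 ranges of depth. With cells of 10000 to 20000 UMIs in both libraries, the log2 ratio (bulb to early) was −3.06 for *Bcl2* and −3.13 for *Mcl1*.

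Of 16 immediate-early and heat-shock genes known to respond to dissociation, 10 were lower and 2 higher in the bulb, beside 38.3% and 25.6% of all genes. *Hspa1b* (257 and 0.125 CPM at early anagen and in the bulb) and *Hspa1a* (351 and 5.06 CPM), near-identical heat-shock genes whose reads cannot be told apart with confidence, differed most, with *Atf3* (244 and 24.4 CPM) and *Dusp1* (42.2 and 259 CPM). In the 125 early-anagen and 2970 bulb cells without an *Atf3*, *Hspa1a* or *Hspa1b* UMI, *Mcl1* had a log2 ratio of −2.68 (−2.80 to −2.57), *Bcl2* of −2.24 (−2.41 to −2.07), *Bcl2l1* of 1.19 (0.72 to 1.69) and *Bak1* of 0.59 (0.38 to 0.81), while *Bax* at 0.55 (0.44 to 0.66) was short of the limit. After thinning to 10000 UMIs, 378 early-anagen and 2770 bulb cells lacked these UMIs. Their ratios of survival to death transcripts were 1.33 (1.24 to 1.43) and 0.200 (0.192 to 0.209), against 1.65 and 0.201 in all thinned cells. More survival than death UMIs were held by 55.3% of the 378 cells, against 63.2%. *Oca2*+ cells also held less *Atf3* than *Oca2*- cells (158 and 300.2 CPM, log2 ratio −0.93). Without an *Atf3*, *Hspa1a* or *Hspa1b* UMI, *Bcl2* in the *Oca2* split had a log2 ratio of −0.35 (−0.73 to 0.018), an interval that includes equality. The ratio of survival to death transcripts was not tested in that split.

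Of the other 16 family genes, 7 passed the minimum level. Of these, 2 were higher and 1 lower in the bulb, beside 25.6% and 38.3% of all genes. The median log2 ratio was 0.01 over the 10 with UMIs in both. *Bnip3*, a BH3-like gene of mitophagy, was at 7.46 CPM at early anagen and 96.4 CPM in the bulb, 12.9-fold higher. *Bad*, a BH3-only gene regulated by growth-factor signalling, was at 78.7 and 179.6 CPM, 2.28-fold higher. *Bok*, an effector-like gene, was at 14.6 and 6.64 CPM, 2.20-fold lower.

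*Bik*, a BH3-only gene, had 240 UMIs in 6.89% of early-anagen cells and 1 UMI in the bulb, but lay below the level minimum (log2 ratio −7.47, −12.78 to −4.98). *Bcl2l2*, a survival gene, was at 9.64 and 7.18 CPM, *Bcl2l12* at 24.9 and 24.1 CPM, *Bcl2l13* at 15.4 and 17.0 CPM, and *Bnip3l*, a partner of *Bnip3* in mitophagy, at 194 and 205 CPM. *Bmf*, another BH3-only gene, was at 1.76 and 3.08 CPM. *Hrk*, *Bcl2l10* and *Bcl2l15* had at most 5 UMIs in a library, and *Bcl2l14* had none. None of the 7 that passed the minimum between *Oca2*+ and *Oca2*- cells was past 1.5-fold, where only 6.12% of all genes were higher and 6.05% lower.

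Downstream of the mitochondria, the 14 genes of the apoptosome and caspases were mixed, with 5 higher, 3 lower and 5 neither among 13 that passed the level (median log2 ratio 0.24). Over all genes, 25.6% were higher and 38.3% lower. *Diablo*, whose product lifts the block on caspases, was at 42.3 CPM at early anagen and 137 CPM in the bulb, and *Casp6*, an executioner caspase, at 22.1 and 56.9 CPM. In the *Oca2* split, 1 of 12 caspase-list genes was higher, 1 of 5 caspase inhibitors, 1 of 5 death-receptor genes and 2 of 9 p53 genes were lower, 1 of 9 upstream regulators was higher, none of 8 mitochondrial genes passed the limit, and of 16 dissociation genes 1 was higher and 3 were lower. In this split 6.12% of all genes were higher and 6.05% lower. *Apaf1*, the scaffold of the apoptosome, was at 19.0 CPM at early anagen and 7.80 CPM in the bulb. It was higher in *Oca2*+ than *Oca2*- cells (27.4 and 17.2 CPM, log2 ratio 0.67).

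Of 5 caspase inhibitors that passed the level, 4 were lower in the bulb and none higher, beside 38.3% and 25.6% of all genes. The median log2 ratio over all 6 inhibitors was −1.71, against −0.19 for all genes. The 4 lower inhibitors were *Birc5* (185 and 14.2 CPM at early anagen and in the bulb), *Birc6* (104 and 31.1 CPM), *Birc2* (17.7 and 5.57 CPM) and *Xiap* (36.0 and 12.3 CPM). *Birc5* is best known as a gene of mitosis. In 1798 early-anagen and 3214 bulb cells without a *Mki67* or *Top2a* UMI it was at 15.2 and 3.39 CPM, with a log2 ratio of −2.17 (−2.50 to −1.84) against −3.71 in all cells.

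Of 7 death-receptor genes, 5 passed the level, 2 of them lower and 1 higher in the bulb. *Tnfrsf21*, a death receptor, was at 12.0 and 0.286 CPM, *Ripk1*, a kinase of the receptor complex, at 32.1 and 15.6 CPM, and the adaptor *Tradd* at 23.7 and 59.3 CPM. Of 12 genes comprising *Trp53* and p53 targets, 5 were higher and 3 lower among 10 that passed the level (median log2 ratio 0.60). For both lists, the shares over all genes were 25.6% higher and 38.3% lower. *Cdkn1a*, a cell-cycle inhibitor, was at 43.0 CPM at early anagen and 195 CPM in the bulb, *Ccng1* at 18.5 and 49.6 CPM, and *Sesn2* at 3.16 and 8.12 CPM, while *Trp53* itself was at 114 and 40.9 CPM. Of the members that are known p53 targets, *Bax* was higher in the bulb, and *Bbc3* and *Pmaip1* had log2 ratios of −0.47 and −2.44.

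Among 8 genes of the mitochondrial membrane, 1 was higher and 3 were lower (median log2 ratio −0.22), beside 25.6% and 38.3% of all genes. *Fis1*, a gene of fission, was at 136 and 251 CPM, while *Opa1*, which shapes the inner membrane, was at 33.8 and 12.9 CPM, and the channel genes *Vdac2* and *Vdac1* were at 473 and 235 CPM and at 317.5 and 184 CPM. VDAC2 is a docking partner of BAK and BAX.

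Of 9 upstream regulators, 7 were lower in the bulb and none higher (median log2 ratio −1.27), beside 38.3% and 25.6% of all genes. *Kit*, the receptor for stem cell factor, was at 486 CPM at early anagen and 108 CPM in the bulb, 4.51-fold lower. *Fbxw7*, *Usp9x* and *Huwe1*, which add or remove ubiquitin on MCL-1 protein, were at 26.9 and 6.80 CPM, 71.0 and 19.3 CPM, and 109 and 38.4 CPM. In *Oca2*+ against *Oca2*- cells *Kit* was level (497 and 486 CPM). *Mitf*, a regulator of *Bcl2* among these 9 genes, was higher there (701 and 406 CPM, log2 ratio 0.79). *Mitf* was not counted as higher in the bulb.

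**Figure D5:**
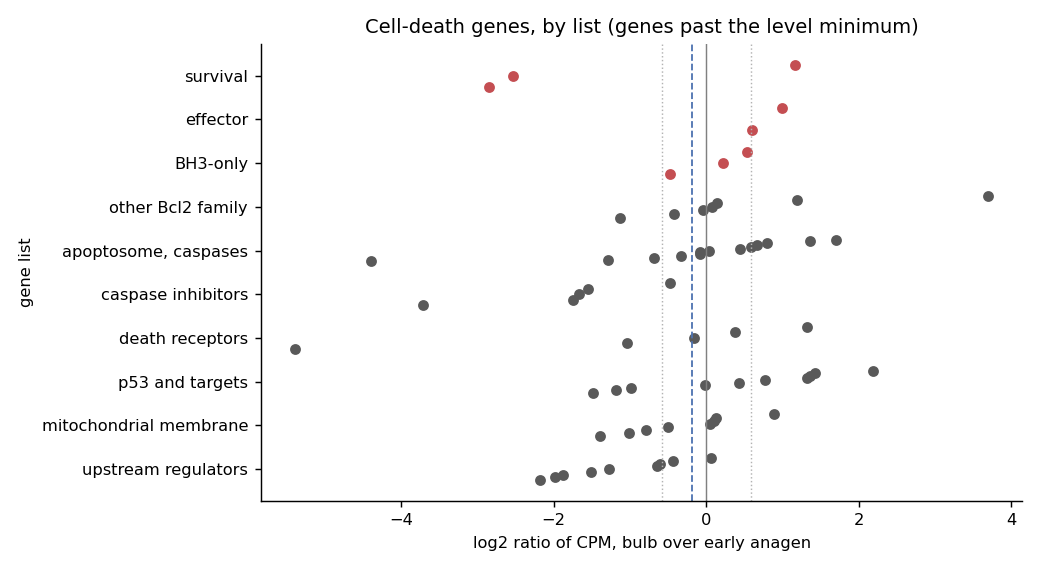
log2 ratio of CPM, bulb over early anagen, for each gene past the mean of 5 CPM, by gene list (members in red, other lists in grey); dotted lines mark 1.5-fold and the blue dashed line the median of all 8833 genes, −0.19. Caspase inhibitors and upstream regulators lie mostly to the left, and the 2 effectors to the right.

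The sign of each member's log2 ratio between the libraries did not depend on the scaling tried, but its size and the counts did. *Bbc3* came close to 0 with DESeq2 factors (−0.045), and *Bid* lay between 0.004 and 0.77 over all settings. TMM and DESeq2 size factors moved every log2 ratio between the libraries up by 0.31 and 0.42. With DESeq2 factors 39.2% of genes were higher and 27.7% lower, with TMM 35.3% and 30.4%, and with a total that left out mitochondrial, ribosomal and pigmentation genes 20.6% and 44.3%. *Bax* moved from 1.03 with DESeq2 factors to 0.43 with that reduced total, and so lay on either side of the limit. *Mcl1* and *Bcl2* lay between −3.13 and −2.42 and between −3.06 and −2.11 over 14 settings, and *Bcl2l1* between 0.997 and 1.59.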

How the data were processed

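The deposited values are unnormalized UMI counts, 1 matrix of genes by barcodes per library, for 2 libraries. The submitters' notes name Cell Ranger 6.0.1 and mm10 for alignment and counting. All values were whole numbers. UMIs of each gene were added up within a group and divided by the group's total to give CPM, with Python 3.11.15, numpy 2.4.6, scipy 1.17.1 and pandas 2.3.3. Of 32285 gene identifiers, 32158 matched GENCODE M21.

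Intervals are at 95%: Poisson for CPM, Clopper-Pearson for shares and exact conditional for ratios. They cover counting error only. A group at 0 UMIs was given a floor of 3 counts. Cells of a library are not replicates and each library is 1 sample, so no p-value was computed. For equal depth, 10000 UMIs were drawn at random from every cell, which left out 446 bulb cells and no early-anagen cell. No doublet caller was run. The ratio and its interval were tried on simulated Poisson counts, which cannot show how they hold where cells vary more than by counting. In early-anagen cells thinned to 10000 UMIs, the variance over the mean was 1.75 for *Bcl2* and 1.62 for *Mcl1*.

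The members and lists were chosen with earlier results of these data known. Named were all members, all family genes and up to 4 genes of each other list with the largest ratio past 1.5-fold. *Mitf*, and *Apaf1*, *Atf3* and *Kit* in the *Oca2* split, were named after their values had been seen. TMM factors came from edgeR 4.0.16 and size factors from DESeq2 1.42.0 in R 4.3.3. Other cells and depths were tried as alternatives. A result for 1 list gene is not reported here.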

Additional observations from a re-analysis of the deposited data

How the results depend on the processing

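Between the libraries, no log2 ratio of the 9 members with UMIs in both libraries changed sign in the alternative settings that gave one (13 for 8 members, 12 for *Pmaip1*). Members higher in the bulb numbered 2 to 5 and members lower 2 to 4. The count higher was 5 with DESeq2 size factors, beside 39.2% of all genes. The count lower was 4 with no CPM minimum, which adds *Pmaip1* and *Bcl2a1b*, beside 20.9% of 32285 genes. The members' median log2 ratio was 0.53 with TMM and 0.64 with DESeq2 factors, against 0.22, in step with the shift of all genes. It fell to 0.043 with the reduced total, where the median of all genes was −0.39. In cells without a *Krt10* or *Krt14* UMI it fell to 0.004, while the median of all genes was −0.18, close to the −0.19 as reported. The ratio of survival to death transcripts at early anagen, 1.53, was 1.65 with cells thinned to 10000 UMIs. Without *Mcl1* it was 0.534 at early anagen, 0.114 in the bulb, 0.371 in *Oca2*+ and 0.610 in *Oca2*- cells. Over 20 family genes it was 1.20, 0.158, 1.02 and 1.33, with *Bnip3* and *Bnip3l* added as death genes, chosen after seeing the data, 0.811, 0.110, 0.688 and 0.869, and without *Bax*, also chosen then, 5.96, 0.761, 4.61 and 6.63. In the *Oca2* split, counts rested on few UMIs. None was lower with all UMIs of each cell, with 5000 UMIs or without the 5% deepest cells (0 each), beside 3.68%, 5.34% and 5.96% of all genes. In cells without an *Atf3*, *Hspa1a* or *Hspa1b* UMI, a setting also chosen after seeing the data, 0 were lower, beside 4.36%. With at least 2 *Oca2* UMIs 2 were lower, beside 7.26% of all genes, and in non-cycling cells 2, beside 5.48%. With 5000 UMIs, with less than 10% mitochondrial UMIs and without the 5% deepest cells, 1 was higher, beside 6.31%, 6.06% and 6.30% of all genes. *Bcl2l1* turned from −0.81 to 0.34 with 5000 UMIs and to 0.16 without keratin UMIs, and *Mcl1* from −0.11 to 0.030 with all UMIs. The causes of these changes were not tested. No paired analysis was possible because each condition had 1 library. The depth gives no precision for *Bcl2a1b*, *Pmaip1* and, in *Oca2*+ cells, *Bid*. Levels of protein were not measured.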
